A study of Mus musculus with 11 samples.

Results

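The stretch and hypertrophy sensor genes are 10 genes of cardiac muscle, Ankrd1, Ankrd23, Xirp1, Xirp2, Csrp3, Fhl2, Nrap, Rcan1, Flnc and Hspb7, taken by name from 50600 genes listed in a count table of mouse heart RNA-seq. The members were chosen by name with results of these data known, and Xirp2 was selected on its measured CPM, which was higher in P3 PAB than in P3 sham hearts. Its P3 values and its comparisons between ages are therefore given as a description, without a test, and only its P7 PAB to sham comparison was tested. The mice were wild type C57BL/6 neonates that underwent pulmonary artery banding (PAB), a constriction that loads the right ventricle with pressure, or a sham operation without the band on the day of birth. Hearts were collected at P3 or P7, with 3 libraries for each group except P7 PAB, which has 2. The labels call the tissue heart and the study's methods call it ventricles, so the loaded right ventricle was sequenced together with the left ventricle, and the sources used here do not say whether a library is 1 animal or a pool. All 10 genes were among the 15808 genes that passed the filter on low counts. Levels are in CPM, the count relative to 1000000 scaled counts of the library, and in FPKM, the same per kilobase of exon, where genes are compared with each other.

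Cardiomyocytes read mechanical load at a few places in the sarcomere and at the membrane. The Z-disc anchors actin and titin, the I-band of titin acts as a spring, and the costamere and intercalated disc pass force to the matrix and to the next cell. Muscle ankyrin repeat proteins bind the titin spring, Xin repeat proteins and NRAP sit where actin meets the junctions, LIM domain proteins such as CSRP3 (muscle LIM protein) and FHL2 link the Z-disc and titin to signalling, RCAN1 binds the phosphatase calcineurin, and filamin C crosslinks actin under tension with small heat shock proteins as its chaperones. Ankrd1 and Rcan1 are widely used as readouts of hypertrophic signalling.

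The libraries held 19274045 to 26820228 counts, and 3 counts corresponded to 0.114 to 0.148 CPM. Cardiomyocyte markers were abundant in all groups, with 10 markers summing to 63668 to 79329 CPM. Xist was at 630.2 to 1061 CPM in all 3 P7 sham libraries and in P3 sham replicate 1, and below 1 CPM in the other 7 libraries, in which the Y-linked Ddx3y was at 42.9 to 51.0 CPM. Operation and Xist class therefore cannot be told apart within P7. The test of whether the PAB effect differs between the ages (interaction) contains that P7 comparison. P3 sham and P7 sham also differ in their share of high Xist libraries. A fit with Xist class as a term takes the Xist effect only from P3 sham replicate 1 against the other P3 sham libraries. Mitochondrial transcripts took 11.4% to 13.1% of counts at P3, 21.1% to 22.2% in P7 sham and 18% and 18.1% in P7 PAB. The P7 PAB libraries also gave lower values with increasing gene length, with slopes of -0.154 and -0.143 log2 units per doubling of exonic length against -0.0278 to 0.0684 in the other 9. Among the 10 sensor genes, P3 sham replicate 3 lay below both other P3 sham libraries for 9, against 37.7% of all genes tested, and P7 PAB replicate 1 lay above replicate 2 for 8, against 53.9%. The part of these library features in the results below was not tested, except where a value without the library or with a correction is given.

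Per kilobase of exon, Hspb7 and Fhl2 were the most abundant members, with means over all libraries of 551 and 463 FPKM, at ranks 50 and 60 of 14936 genes with a length. Ankrd1 followed at 337 FPKM and Csrp3 at 243 FPKM. Nrap at 80.3, Ankrd23 at 65.9, Xirp1 at 54.8 and Flnc at 50.7 FPKM formed a middle range. Rcan1 had 27.6 FPKM and Xirp2 was lowest at 11.6 FPKM, rank 3016. At P7, 5 of the 10 genes rose in PAB hearts by at least 1.5-fold with an adjusted p of at most 0.05 (edgeR), namely Ankrd1, Csrp3, Ankrd23, Rcan1 and Fhl2, and 0 fell. Across all genes tested, 9.63% passed in the higher direction and 8.59% in the lower one. At P3, 1 of the 9 genes tested rose, Ankrd23, and 0 fell, where 0.108% and 0.019% of all genes passed in those directions. The genes that passed in the higher direction at P3 numbered 17. Their number was 4 without P3 PAB replicate 2 and 23 without P3 sham replicate 1.

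**Figure D1:**
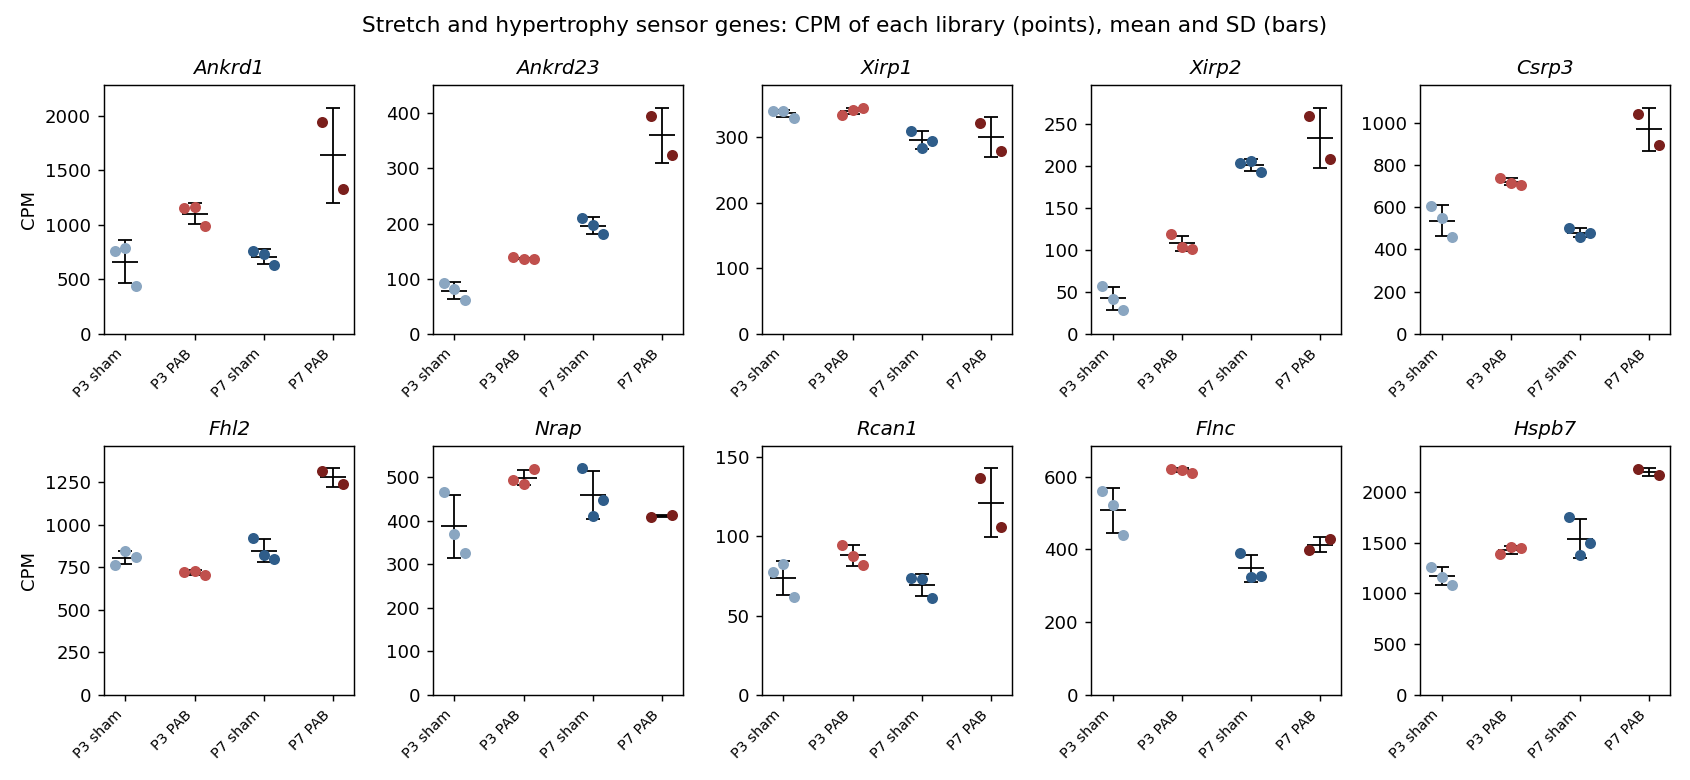
CPM of each sensor gene (y axis, linear from 0) in each library (points) of the 4 groups (x axis), with the mean and SD (bars). Both P7 PAB libraries lie above all 3 P7 sham libraries for 8 of the 10 genes, Xirp1 and Nrap being the exceptions, where 30.8% of all genes did so, and the 4 groups of Ankrd23 do not overlap, in the order P3 sham, P3 PAB, P7 sham, P7 PAB.

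Ankrd1 encodes CARP, an ankyrin repeat protein that binds the N2A region of titin and also enters the nucleus, and lies at chr19:36111961-36120099 on the minus strand of GRCm38 (ENSMUSG00000024803). Its level was 762, 790.3 and 439 CPM in P3 sham and 1157, 1167 and 990.5 CPM in P3 PAB. At P7 it was 759, 736 and 635 CPM in sham and 1948 and 1328 CPM in PAB. All 5 PAB libraries were above all 6 sham libraries, and the 2 sham groups overlapped. The P7 difference was 2.31-fold (log2 fold change 1.21, SE 0.20, adjusted p = 0.00018). At P3 the difference was 1.66-fold (0.73, SE 0.18) and missed the threshold (adjusted p = 0.17, edgeR quasi-likelihood test), and without the low P3 sham replicate 3 the log2 value was 0.51. The P3 difference passed in 5 of 24 alternatives, among them the fit with the replicate number as a block (0.77, adjusted p = 0.019, edgeR). Level did not differ detectably between the ages in sham hearts (log2 difference 0.10, SE 0.18, adjusted p = 0.72), and this sign turned to -0.13 without P3 sham replicate 3. In PAB hearts the P7 libraries were above the P3 libraries, 1.48-fold apart (log2 difference 0.57, SE 0.20, adjusted p = 0.029, below the fold threshold). The PAB to sham effect was not shown to differ between the ages (interaction 0.47, SE 0.27, adjusted p = 0.21, edgeR), but the interaction was 0.70 and passed without P3 sham replicate 3 (adjusted p = 0.014), and it also passed without the filter on low counts (adjusted p = 0.00038), though not in the bias-adjusted fit (adjusted p = 0.16). Both measures rest on the 2 P7 PAB libraries. Without P7 PAB replicate 1 the interaction was 0.17 and the difference between the ages in PAB hearts 0.26 (adjusted p = 0.41), and without replicate 2 they were 0.72 and 0.82, of which the latter passed. With total count scaling that difference was 0.31 (adjusted p = 0.18, edgeR).

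The sequence upstream of Ankrd1 was read because TEAD factors, the DNA partners of YAP in mechanical signalling, bind the M-CAT element (CATTCC, searched on both strands). RefSeq (GRCm38.p6) gave 14 start windows for 9 of the 10 genes. The 250 bases before the RefSeq start of Ankrd1, chr19:36119845-36120094 on the minus strand, lie within an exon of a longer GENCODE model and held 2 M-CAT matches, 210 and 123 bases before the start. A window of Ankrd23 and one of Flnc held 1 match each, 120 and 104 bases before their starts. An M-CAT match was present in 12.6% of 32851 windows of that length. The 30 bases around each match are shown 5′ to 3′ with the match in capitals.
Ankrd1, chr19:36120037-36120066: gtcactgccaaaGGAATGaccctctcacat
Ankrd1, chr19:36119950-36119979: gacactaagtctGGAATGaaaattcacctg

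Ankrd23 encodes DARP, a paralogue of CARP that binds the same titin region, and lies at chr1:36530188-36536883 on the minus strand (ENSMUSG00000067653). It was at 91.6, 82.2 and 62.0 CPM in P3 sham and 139, 137 and 136 CPM in P3 PAB. At P7 its level was 211, 197 and 181 CPM in sham and 395 and 325 CPM in PAB. The 4 groups did not overlap at any step, in the order P3 sham, P3 PAB, P7 sham, P7 PAB. Ankrd23 rose in PAB hearts at both ages, 1.74-fold at P3 (log2 fold change 0.80, SE 0.12, adjusted p = 0.0090) and 1.83-fold at P7 (0.88, SE 0.12, adjusted p = 5.8e-05). It also rose with age, by 1.32 on the log2 scale in sham (SE 0.12, adjusted p = 1.6e-06) and by 1.40 in PAB hearts (SE 0.12, adjusted p = 1.4e-06), comparisons that share libraries with those above. The P3 value was 0.66 without P3 sham replicate 3 and 0.92 without replicate 1, which leaves only libraries low in Xist, and both passed (adjusted p = 0.031 and 0.0070, edgeR). The P3 call was lost on p, with little change in the log2 value, without either of 2 libraries. The value was 0.79 without P3 PAB replicate 1 (adjusted p = 0.051, edgeR) and 0.80 without P3 PAB replicate 2 (adjusted p = 0.055, edgeR). Per kilobase of exon, the ratio of Ankrd1 to Ankrd23 was 7.79 ± 1.18 in P3 sham, 7.54 ± 0.62 in P3 PAB and 3.38 ± 0.10 in P7 sham (SD, n = 3), and 3.82 and 4.60 in the P7 PAB libraries. The ratio was thus lower in every P7 library than in every P3 library, at either operation. Reads of Ankrd23 may include those of Gm42417, a model on the same strand that shares 2109 exonic bases with it and is not listed in the table.

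Xirp2 and Xirp1 encode Xin repeat proteins that bundle actin at the intercalated disc and Z-disc. Xirp2 (ENSMUSG00000027022) lies at chr2:67446002-67526614 on the plus strand. It was at 57.0, 41.7 and 29.1 CPM in P3 sham and at 119, 104 and 101 CPM in P3 PAB, the values that chose it. These are 2.53-fold apart (log2 difference 1.34, SE 0.16), or 1.13 without P3 sham replicate 3. P7 hearts had 204, 207 and 193 CPM in sham and 259 and 208 CPM in PAB. The P3 PAB mean was 53.7% of the P7 sham mean, where the P3 sham mean was 21.2%. The P7 difference of 1.16-fold (log2 0.22, SE 0.17) missed the threshold (adjusted p = 0.33, edgeR). The P7 PAB libraries both exceeded the sham libraries, though the lower PAB and the highest sham value were close, at 208.1 and 206.6 CPM, and without P7 PAB replicate 1 the log2 value was 0.05. With the trend in gene length removed it was 0.53 (adjusted p = 0.027, below 1.5-fold), and with Xist class as a term, which rests on P3 sham replicate 1, it was 0.90. The latter draws on the P3 sham values that chose the gene and is given without a test. Xirp2 has an exonic length of 11979 bases, the longest of the 10 genes. The PAB to sham difference was lower at P7 than at P3 by 1.12 on the log2 scale (SE 0.24), or by 0.70 with Xist class as a term, which is given as a description.

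The window before the start of Xirp2 (chr2:67445752-67446001, plus strand, GRCm38) lies outside the gene's exons. MEF2 factors act downstream of calcineurin and other load signals in muscle, and of the 14 windows only this one and 1 of Fhl2 held a match to the MEF2 element, which 2.92% of all windows held. The match in Xirp2, in capitals, began 74 bases before the start.
Xirp2: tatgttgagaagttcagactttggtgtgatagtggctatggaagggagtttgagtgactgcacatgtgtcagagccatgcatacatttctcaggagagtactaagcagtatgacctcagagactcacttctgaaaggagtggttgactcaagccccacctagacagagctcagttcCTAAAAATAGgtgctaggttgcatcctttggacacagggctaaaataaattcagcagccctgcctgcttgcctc

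Xirp1 (ENSMUSG00000079243, chr9:120013755-120023598, minus strand) stayed within a narrow range. Its level was 340.1, 339.5 and 330.0 CPM in P3 sham and 334, 342 and 344 CPM in P3 PAB. By P7 the level was 309.5, 283 and 295 CPM in sham and 322 and 279.5 CPM in PAB. PAB and sham libraries overlapped at both ages. The log2 difference was 0.02 at P3 (SE 0.07, adjusted p = 0.98) and 0.02 at P7 (SE 0.08, adjusted p = 0.82). Both P7 groups were below both P3 groups, with a log2 difference of -0.19 between the ages in sham (SE 0.07, adjusted p = 0.045, 0.88-fold). That p ran up to 0.18 in the alternatives, with Xist class as a term, and the value was -0.50 with total count scaling. The ratio of Xirp1 to Xirp2 per kilobase of exon was 17.4 ± 5.55 in P3 sham, 6.50 ± 0.64 in P3 PAB and 3.02 ± 0.18 in P7 sham (SD, n = 3), and 2.55 and 2.76 in P7 PAB. The P3 ratios contain the Xirp2 values that chose that gene, so their difference follows from the choice and is a description.

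Csrp3 (ENSMUSG00000030470) encodes muscle LIM protein, a Z-disc protein whose loss causes cardiomyopathy, and lies at chr7:48830398-48848033 on the minus strand. It was at 604, 547 and 460.1 CPM in P3 sham and 738, 716 and 706 CPM in P3 PAB. The P7 libraries had 501, 459 and 476 CPM in sham and 1041 and 895 CPM in PAB. The PAB libraries were above the sham libraries at both ages. Csrp3 rose 2.02-fold at P7 (log2 fold change 1.02, SE 0.10, adjusted p = 3e-06). The P3 difference was 1.34-fold (0.42, SE 0.09, adjusted p = 0.10, edgeR). The difference between the 2 PAB effects was itself significant, at 0.59 on the log2 scale (SE 0.13, adjusted p = 0.0054).

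Fhl2 (ENSMUSG00000008136), a LIM protein that tethers metabolic enzymes to titin and acts as a transcriptional cofactor, lies at chr1:43123074-43196984 on the minus strand. Its level was 764, 845 and 809.9 CPM in P3 sham and 722, 728 and 702 CPM in P3 PAB. At P7 it was 923, 823 and 797 CPM in sham and 1316 and 1240.0 CPM in PAB. P3 PAB libraries lay below and P7 PAB libraries above their sham libraries. The P3 difference was 0.89-fold (log2 -0.17, SE 0.07) and missed the threshold (adjusted p = 0.53, edgeR). At P7 Fhl2 rose 1.51-fold (log2 fold change 0.59, SE 0.08, adjusted p = 3.1e-05), just above the fold threshold. That P7 call was lost in 9 of 24 alternatives, in all of which the adjusted p stayed at or below 0.022 and the log2 value was 0.30 to 0.58. Removal of the trend in gene length gave 0.31. The effect differed between the ages by 0.76 on the log2 scale (SE 0.11, adjusted p = 0.00025), the largest such difference among the 9 genes tested. Its relative Fhl1, also a titin-binding LIM protein, rose at both ages, from 147 to 251 CPM at P3 (log2 fold change 0.77, SE 0.10, adjusted p = 0.0090) and from 124 to 339.8 CPM at P7 (1.46, SE 0.11, adjusted p = 6.2e-07).

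Serum response factor binds CArG elements in many muscle promoters. Only the 2 windows of Fhl2 held a CArG match among the 14, and 1.47% of all windows held one. The window shown precedes an internal start (chr1:43163962-43164211, minus strand, GRCm38) in an intron of the gene, and its match, in capitals, began 31 bases before that start. The counts do not separate starts of a gene.
Fhl2, internal start: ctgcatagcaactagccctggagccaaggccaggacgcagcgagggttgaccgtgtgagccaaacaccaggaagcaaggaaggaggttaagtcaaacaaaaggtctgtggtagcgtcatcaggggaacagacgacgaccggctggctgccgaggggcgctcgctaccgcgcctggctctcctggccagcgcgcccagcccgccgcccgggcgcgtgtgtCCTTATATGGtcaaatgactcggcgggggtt

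Nrap (ENSMUSG00000049134, chr19:56320035-56390037, minus strand) encodes a LIM and nebulin repeat protein that scaffolds the assembly of myofibrils at cell junctions. It was at 467, 369 and 326 CPM in P3 sham and 494, 485 and 520.3 CPM in P3 PAB. P7 hearts had 521, 412 and 449 CPM in sham and 410.1 and 414 CPM in PAB. P3 PAB libraries lay above P3 sham, while the P7 groups overlapped. The log2 difference was 0.37 at P3 (SE 0.11, adjusted p = 0.32, edgeR) and -0.16 at P7 (SE 0.12, adjusted p = 0.31, edgeR). Leaving out a library, the P7 value ran from -0.24 to -0.064. It turned to 0.26 with Xist class as a term, which rests on P3 sham replicate 1. The PAB effect was lower at P7 than at P3 by a log2 interaction of -0.53 (SE 0.17, adjusted p = 0.030). This call was lost in 9 of 22 alternatives. Among these the value was -0.26 with Xist class as a term (adjusted p = 0.27, edgeR) and -0.42 to -0.54 otherwise. Nrap shares 268 exonic bases with Habp2 on the opposite strand, which had 1138 counts over all libraries against 111124 of Nrap.

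**Figure D2:**
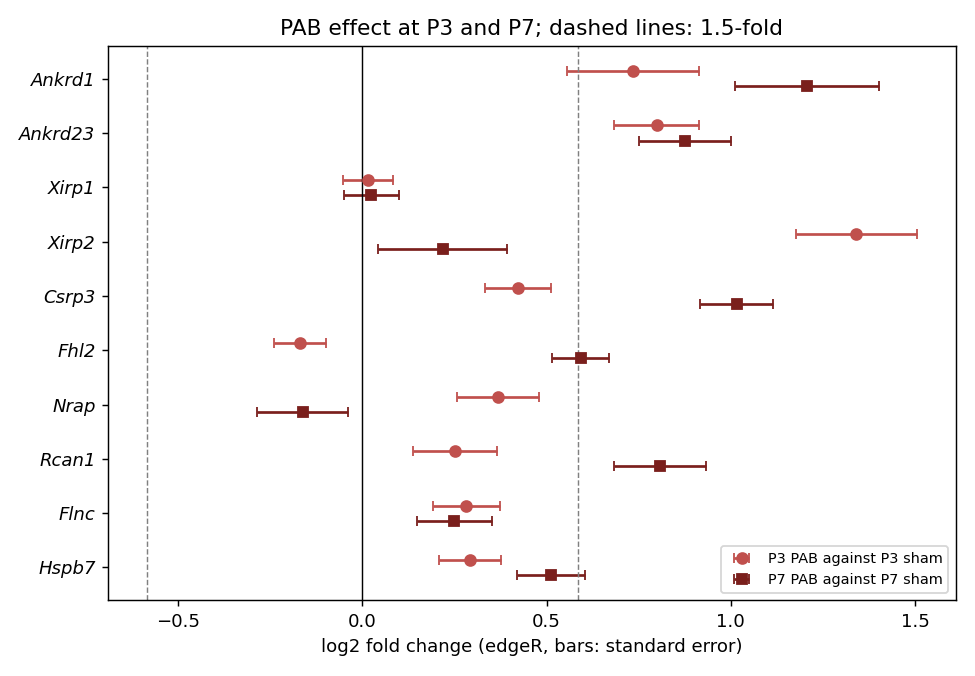
Log2 fold change of PAB against sham (x axis) with its standard error (bars) for each sensor gene (y axis) at P3 (circles) and P7 (squares), with dashed lines at 1.5-fold. Xirp2, which was chosen on its P3 values, has the highest P3 value, at 1.34, and 0.22 at P7. The effect was higher at P7 than at P3 by a test of the difference for Csrp3, Fhl2 and Rcan1 and lower for Nrap.

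Rcan1 (ENSMUSG00000022951, chr16:92391953-92470867, minus strand) is transcribed from alternative starts, of which the internal one is known as a target of calcineurin and NFAT. It was at 77.3, 82.6 and 61.6 CPM in P3 sham and 94.9, 87.5 and 81.7 CPM in P3 PAB, with P3 groups that overlapped. By P7 the level was 73.9, 73.0 and 61.3 CPM in sham and 137 and 106 CPM in PAB, without overlap. Rcan1 rose 1.75-fold at P7 (log2 fold change 0.81, SE 0.13, adjusted p = 0.00013), a call lost in 1 of 24 alternatives, at 0.58, below 1.5-fold. At P3 the difference was 0.25 on the log2 scale (SE 0.11, adjusted p = 0.58, edgeR), or 0.14 without P3 sham replicate 3. The effect differed between the ages by 0.56 (SE 0.17, adjusted p = 0.027), a call lost in 9 of 22 alternatives, with adjusted p up to 0.18 by edgeR. Without P7 PAB replicate 1, the higher of the pair, the P7 value was 0.61 and the interaction 0.36. Its relatives Rcan2 and Rcan3, named after their values were seen, were not called at either age. At P7 Rcan2 was 244.0 CPM in sham and 181 CPM in PAB (log2 difference -0.43, SE 0.07, adjusted p = 0.00021, below the fold threshold), and Rcan3 was 16.6 and 15.4 CPM (-0.11, SE 0.09, adjusted p = 0.36).

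The window before the internal start of Rcan1 (chr16:92400079-92400328, minus strand, GRCm38), which lies in an intron of the longer transcript, held 3 copies of the NFAT core GGAAA (both strands), at 227, 193 and 163 bases before the start. The window before the distal start (chr16:92466170-92466419) held none. The core is short and occurred in 55.6% of all windows, and the copies overlapped no match to the other 3 motifs. The copies are in capitals.
Rcan1, internal start: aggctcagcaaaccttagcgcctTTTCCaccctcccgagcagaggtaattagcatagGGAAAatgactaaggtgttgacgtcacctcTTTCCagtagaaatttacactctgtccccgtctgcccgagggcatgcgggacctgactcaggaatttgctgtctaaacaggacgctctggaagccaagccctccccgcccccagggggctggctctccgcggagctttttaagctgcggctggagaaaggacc

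Flnc (ENSMUSG00000068699, chr6:29433256-29461883, plus strand) encodes filamin C, the muscle filamin of Z-discs and costameres. Its level was 561, 522 and 439 CPM in P3 sham and 622, 619 and 611 CPM in P3 PAB. The P7 libraries had 390.3, 325 and 328 CPM in sham and 399 and 427 CPM in PAB. PAB libraries lay above sham libraries at each age, by a log2 difference of 0.28 at P3 (SE 0.09, adjusted p = 0.37) and 0.25 at P7 (SE 0.10, adjusted p = 0.059), neither past the threshold. With the trend in gene length removed, the P7 value was 0.48 (adjusted p = 0.0033, edgeR), still below 1.5-fold. With Xist class as a term, which rests on P3 sham replicate 1, it was 0.47. Without P3 sham replicate 3 the P3 value was 0.19. Both P7 groups were below both P3 groups, with log2 differences between the ages of -0.55 in sham (SE 0.09, adjusted p = 0.00042) and -0.58 in PAB (SE 0.10, adjusted p = 0.00041), each just short of 1.5-fold. With total count scaling both passed, at -0.86 and -0.83. The sham value also passed at -0.69 with Xist class, at -0.64 without P3 sham replicate 3 and at -0.64 without P7 sham replicate 1. The PAB value passed at -0.59 by DESeq2, at -0.63 with the replicate number as a block and at -0.60 without P3 PAB replicate 3. It was -0.63 without P7 PAB replicate 2 and -0.38 with the trend in gene length removed. Flna, the filamin of most cell types and named after its value was seen, had a log2 difference at P7 of 0.06 (SE 0.07, adjusted p = 0.56).

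Hspb7 (ENSMUSG00000006221, chr4:141420779-141425311, plus strand) encodes the cardiovascular small heat shock protein, which binds filamin C. Its level was 1258, 1159 and 1081 CPM in P3 sham and 1383, 1457 and 1446 CPM in P3 PAB. At P7 it was 1747, 1380.5 and 1491 CPM in sham and 2220.5 and 2168 CPM in PAB. The PAB libraries were above the sham libraries at both ages. The P7 difference was 1.43-fold (log2 0.51, SE 0.09, adjusted p = 0.00044), which passed on p but not on fold, and the P3 difference was 1.23-fold (0.29, SE 0.08, adjusted p = 0.29, edgeR). Without P7 sham replicate 1, which was the highest of its group, the P7 value was 0.61 and passed both. It also passed both at 0.68 with Xist class as a term, which rests on P3 sham replicate 1. With the trend in gene length removed the P7 value was 0.34 (adjusted p = 0.0038). Between the ages, Hspb7 was higher at P7 by 0.40 in sham (SE 0.08, adjusted p = 0.0021, 1.32-fold) and rose 1.54-fold in PAB hearts (0.62, SE 0.09, adjusted p = 9.5e-05). The sham value was 0.09 (adjusted p = 0.32) when libraries were scaled by the total count, a scaling that moved the median of all genes by -0.31.

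At P7, the median log2 difference over the 10 genes was 0.55, against -0.0037 over all genes tested. By adjusted p alone, 6 of 10 were higher at P7, Hspb7 being added, where 22.8% of all genes were. The PAB and sham libraries did not overlap, with PAB higher, for 8 of 10, where 30.8% of all genes did so. At P3, the median over the 9 genes tested was 0.29, against -0.0010 over all genes. An unadjusted p of at most 0.05 was reached by 8 of the 9 (edgeR), Fhl2 among them with PAB lower, where 8.39% of all genes tested reached it. The libraries did not overlap for 6 with PAB higher and 1, Fhl2, with PAB lower, against 8.65% and 8.02% of all genes. These P3 values share P3 sham replicate 3, which was low for 9 of the 10 sensor genes. Without it each positive P3 value was smaller, with log2 values of 0.32 for Csrp3, 0.26 for Nrap and 0.19 for Flnc. Between the ages in sham hearts, 1 of 9 was called higher, Ankrd23, and 0 lower, where 5.62% and 5.73% of all genes were. In PAB hearts 3 of 9 were called higher at P7 than at P3, Ankrd23, Fhl2 and Hspb7, and 0 lower, against 9.5% and 8.2%. Of these, the Fhl2 and Hspb7 calls were lost when libraries were scaled by the total count, at 0.58 and 0.37 on the log2 scale, and with the trend in gene length removed, at 0.58 and 0.48. The interaction passed for 4 of 9, with 3 positive and 1 negative, against 13.3% and 12.6% of all genes, or 25.9% in either direction. In bulk RNA, a change in the number of cells of a type and a change in RNA per cell cannot be told apart. The cardiomyocyte markers summed to 69501 to 79329 CPM in P7 sham and 63668 to 69316 CPM in P7 PAB, with 1 of 10 called higher and 3 lower, and their part in the members' values was not tested.

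**Figure D3:**
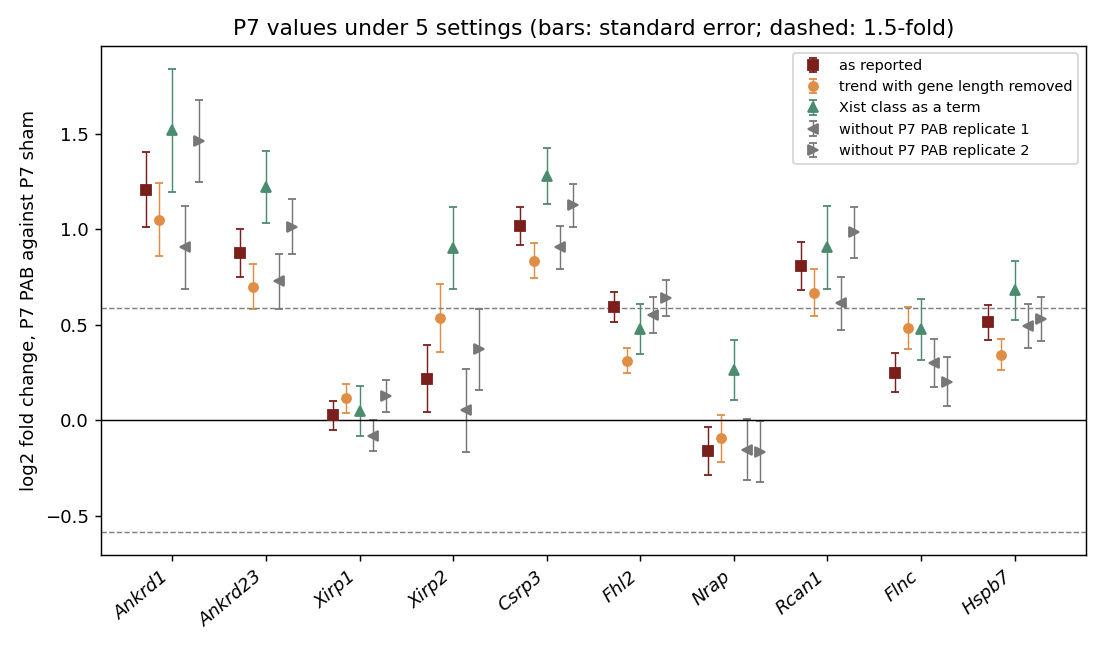
Log2 fold change at P7, PAB against sham (y axis), with its standard error, for each sensor gene (x axis) under 5 settings, with dashed lines at 1.5-fold. Ankrd1, Ankrd23, Csrp3 and Rcan1 stay above the upper dashed line in these 5, whereas Xirp2 runs from 0.05 to 0.90.

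Skeletal muscle also expresses several of these genes. The 17 skeletal muscle markers summed to 1664 to 1847 CPM in P3 sham, 1862 to 2319 in P3 PAB, 1636 to 1970 in P7 sham and 2364 to 2797 in P7 PAB, of which 3 of the 9 tested, Acta1, Myl1 and Myh8, were called higher at P7. Myl1, a light chain of fast skeletal myosin, was at 7.39 to 8.80 CPM in P7 sham and 17.9 to 32.1 CPM in P7 PAB (log2 fold change 1.62, SE 0.24, adjusted p = 7.5e-05). Myh8, the perinatal skeletal myosin heavy chain, was at 0.880 to 1.58 CPM and 2.12 to 2.84 CPM (0.93, SE 0.29, adjusted p = 0.017). Nearly all of this sum was Ckm and Acta1, both also made by heart muscle. The defining genes Myod1, Myog, Myh2 and Myh4 were at or near 0, with Myod1 at 0 in every library and Myog, Myh2 and Myh4 at no more than 0.130 CPM. Of 8 atrial markers, Nppa and Myl4 were called higher and Nr2f2 and Tbx5 lower at P7. Their sum was 170 to 214 CPM in P7 sham and 1455 to 1946 CPM in P7 PAB, of which Nppa was 56.3 to 91.6 and 1265 to 1786 CPM. Myl4, the atrial essential myosin light chain, was at 28.4 to 47.2 and 83.5 to 96.1 CPM (log2 fold change 1.31, SE 0.34, adjusted p = 0.0053), and Myl7, the atrial regulatory light chain, at 23.1 to 47.0 and 48.5 to 56.3 CPM (0.68, adjusted p = 0.22, not called). The atrial genes Sln and Bmp10 were at no more than 5.60 and 4.23 CPM in any library. At P7, fibroblast markers gave 0 higher and 2 lower of 10, smooth muscle and pericyte markers 2 and 0 of 10, endothelial markers 1 and 0 of 10, macrophage markers 0 and 1 of 10, and erythroid markers 0 and 0 of 7 tested (edgeR). The part of these cell types in the members' values was not tested.

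Genes of the same structures and pathways were taken from 5 lists of 110 tested genes outside the members. At P7, 21 of them were called higher and 9 lower, where 9.63% and 8.59% of all genes were. With the trend in gene length removed, these became 16 and 8. The values of single list genes below are without that correction. Among 27 other Z-disc and I-band genes, 5 were higher and 2 lower at P7, with a median log2 difference of -0.0016. Besides Fhl1, the leading changes among genes of at least 10 CPM were Pdlim3, a PDZ and LIM protein of the Z-disc, from 34.3 to 61.7 CPM (log2 fold change 0.85, SE 0.11, adjusted p = 2.7e-05), and Mypn (myopalladin), a Z-disc partner of CARP, which fell from 122 to 66.0 CPM (-0.89, SE 0.07, adjusted p = 8.8e-07). Fhl1 was the only one of them called at P3. Among 30 costamere and intercalated disc genes, 2 rose and 3 fell, with a median of -0.17. Smpx, a small muscle protein of the costamere, rose from 233 to 455 CPM (0.96, SE 0.10, adjusted p = 3.9e-06). Dsp (desmoplakin of the desmosome) fell from 967 to 552 CPM (-0.81, SE 0.09, adjusted p = 8.6e-06).

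Among 24 calcineurin and NFAT genes, 1 rose and 3 fell at P7, where 9.63% and 8.59% of all genes did so, with a list median of -0.26. Cib1, which anchors calcineurin at the membrane, rose from 10.8 to 20.5 CPM (0.92, SE 0.09, adjusted p = 2.5e-06), and Akap6, a scaffold for calcineurin at the nuclear envelope, fell from 235 to 136 CPM (-0.79, SE 0.11, adjusted p = 4.7e-05). Among 18 genes of filamins, BAG3 and small heat shock proteins, 5 rose and 1 fell, with a median of 0.09. Small heat shock proteins led, with Hspb3 from 8.07 to 16.5 CPM (1.04, SE 0.13, adjusted p = 1.7e-05), Hspb1 from 100.2 to 195 CPM (0.96, SE 0.11, adjusted p = 7.4e-06) and Hspb2 from 36.1 to 60.9 CPM (0.76, SE 0.10, adjusted p = 4.3e-05). Bag3, a co-chaperone in filamin turnover and named after its value was seen, had a log2 difference of -0.43 (SE 0.08, adjusted p = 0.00059, below the fold threshold). Of 11 natriuretic peptide and fetal myofibril genes, 8 rose and 0 fell, with a median of 1.69. Nppa rose from 72.4 to 1525 CPM (4.40, SE 0.32, adjusted p = 3.2e-07), Acta1 from 100.3 to 770.0 CPM (2.94, SE 0.33, adjusted p = 8e-06) and Nppb from 68.7 to 318 CPM (2.21, SE 0.26, adjusted p = 1.1e-05). Acta1 was the only gene of that list called at P3, from 81.0 to 297 CPM (1.87, SE 0.30, adjusted p = 0.019). At P7, the highest fold of PAB over sham among the sensor genes, 2.31 for Ankrd1, was below those of these 3 genes.

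**Figure D4:**
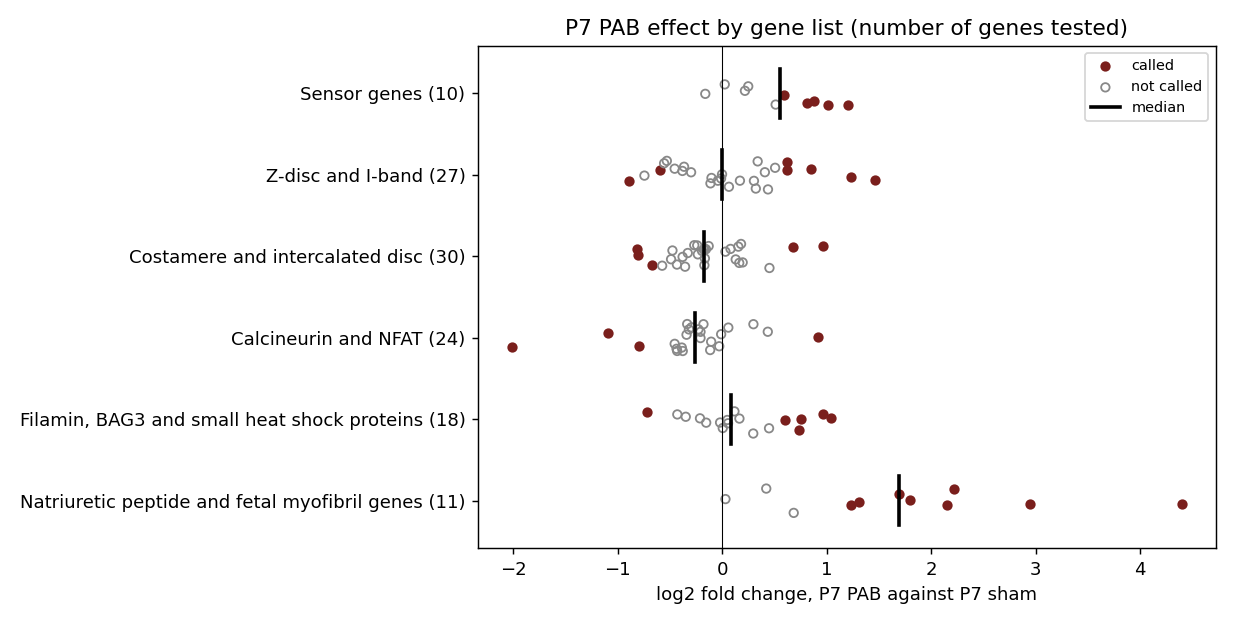
Log2 fold change at P7, PAB against sham (x axis), of the 10 sensor genes and of the tested genes of 5 lists (rows), with called genes filled, other genes open and the median of each row as a black bar. The medians are 0.55 for the sensor genes, 1.69 for the natriuretic peptide and fetal myofibril genes and -0.26 to 0.09 for the other 4 lists.

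The genes whose course over the 11 libraries was closest to that of a sensor gene were found among 9226 genes of at least 10 CPM, by the root mean square difference of centred log2 CPM. For Ankrd1 these were Gm20390 (0.189), Rasl11b (0.197) and Adamtsl5 (0.218), and the closest member was Csrp3 at 0.238. For Xirp2 they were Klhdc8a (0.360), Lrrc2 (0.406) and Mapt (0.431), all higher in P7 sham than in P3 sham, with Ankrd23 as the closest member at 0.380. Csrp3 was closest to Tmem53 (0.0844), the glycolytic enzyme gene Tpi1 (0.0882) and Ptgds (0.0952). Rcan1 was closest to Tpi1 (0.0843), Anxa2 (0.0880) and Chchd4 (0.0925), and Csrp3 and Rcan1 were each other's closest member, at 0.140. These distances describe 11 libraries that share groups and Xist class, and carry no test.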

How the data were processed

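RNA of neonatal mouse ventricles was sequenced as paired-end reads. Alignment by the authors used STAR 2.5.2b and GRCm38, and they deposited whole, unnormalized counts per gene, 1 column per library. The counting tool, strand setting and annotation release are not given in the sources used here. Groups came from the labels, and p-values measure the spread between libraries, which may be technical. The members and all lists were chosen with earlier results of these data known. The tests used edgeR 4.0.16 in R 4.3.3 (TMM, filterByExpr, 1 quasi-likelihood fit over the 4 groups and 11 libraries, Benjamini-Hochberg adjustment over 15808 genes), and genes were called at 1.5-fold or more with adjusted p no higher than 0.05, or at that adjusted p alone for the interaction of age and operation. The study's methods used DESeq2, which was run as an alternative (version 1.42.0). The steps were tested on simulated data. Exonic lengths and positions came from GENCODE M21 (GRCm38) by symbol. Of the genes tested, 872 had no length and were left out of FPKM ranks. Replicates of a group differed by more than sampling noise (chi-square of 4.43 to 13.2 per gene), so no library was counted as a repeat.

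Named genes were all members, the 3 called genes of each list with the largest P7 change and at least 10 CPM on average, list genes called at P3, marker genes, and the 3 nearest genes of Ankrd1, Xirp2, Csrp3 and Rcan1 (log2 CPM, prior count 2). Others are named as chosen after their values were seen. Some genes are not reported here. Sequences came from RefSeq (GRCm38.p6), which gave no window for Xirp1. Alternatives were RLE or total count scaling, no filter or a stricter one (a mean of 50, and 10 in each library of some group), DESeq2, unadjusted p, no fold threshold, fits of only the 2 groups compared, the replicate number as a block, gene length trend removed, those together, Xist class as a term, and leaving out each library. Figures used Python 3.11.15 and matplotlib 3.10.9.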

Additional observations from a re-analysis of the deposited data

Results flagged for a closer look

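The PAB effect differed between P3 and P7, by the test of the difference itself (edgeR interaction, adjusted p), for 4 of the 9 genes tested, where 25.9% of all genes did so. Fhl2 had an interaction of 0.76 on the log2 scale (adjusted p = 0.00025), with PAB libraries below sham at P3 and above sham at P7. Csrp3 had 0.59 (adjusted p = 0.0054), with both effects positive, and neither of these calls was lost in any of 22 alternatives. Rcan1 had 0.56 (adjusted p = 0.027) and Nrap had -0.53 (adjusted p = 0.030), and each of those calls was lost in 9 of 22 alternatives. Xist class as a term was among these, at 0.62 for Rcan1 (adjusted p = 0.062, edgeR) and -0.26 for Nrap (adjusted p = 0.27, edgeR). Each interaction includes the P7 comparison, in which operation and Xist class cannot be told apart.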

How the results depend on the processing

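The Ankrd1, Ankrd23 and Csrp3 calls at P7 passed in all 24 alternatives. The number of members called higher at P3, 1 as reported, was 2 with unadjusted p, without the filter on low counts, with a replicate block, and with the block and removal of the length trend, Ankrd1 being added. With the block Ankrd1 was 0.77 (adjusted p = 0.019), and 0.75 (adjusted p = 0.020) with the length trend also removed. The fit without the filter had an infinite variance prior, so a bias-adjusted fit was added after seeing the data, and it also gave 2. Leaving out 1 library gave 0 to 1. At P7, 5 became 3 with the block and the length trend removed, where Fhl2 was 0.30 and Rcan1 0.58. Between the ages in sham, 1 higher and 0 lower became 2 and 2 without a fold threshold, and the lower count was 1 with total count scaling and with Xist class, and 0 to 1 leaving out a library. In PAB, 3 higher and 0 lower became 6 and 1 without a fold threshold and 1 and 1 with total count scaling; the higher count was 1 with the length trend removed, alone or with the block, and 3 to 5 leaving out a library, and the lower count was 1 with DESeq2 and with the block, and 0 to 1 leaving out a library. Where a lower count between the ages was 1, the gene was Flnc. Of all 15808 genes, 888 were called higher and 906 lower between the ages in sham. These became 2566 and 2650 without a fold threshold and 397 and 2881 with total count scaling. In PAB, 1501 and 1296 became 3521 and 3354 without a fold threshold and 645 and 3068 with total count scaling. The negative interaction, 1 as reported, was 0 with the length trend removed or Xist class, and 0 to 1 leaving out a library. Genes of the 5 lists that fell at P7, 9 of 110, became 34 without a fold threshold and 8 to 14 leaving out a library.

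Signs turned as follows (log2). Xirp1 became -0.027 at P3 with total count scaling, and ran from -0.082 to 0.13 at P7 leaving out a library, below 0 without P7 sham replicate 2 or P7 PAB replicate 1. Nrap at P7 became 0.26 with Xist class. Between the ages in sham, total count scaling gave -0.21 for Ankrd1, -0.24 for Fhl2 and -0.059 for Nrap, Xist class gave -0.10 for Ankrd1 and -0.018 for Nrap, and Ankrd1 ran from -0.13 (without P3 sham replicate 3) to 0.24 leaving out a library. The interaction of Flnc became 0.029 with total count scaling, 0.17 and 0.10 with the length trend removed without and with the block, 0.11 with Xist class, and ran from -0.11 to 0.060 leaving out a library, above 0 without P3 sham replicate 3, P7 sham replicate 1 or P7 PAB replicate 1. That of Ankrd23 became -0.016 with the block, -0.081 and -0.16 with the length trend removed without and with it, and ran from -0.074 to 0.22 leaving out a library, below 0 without P3 sham replicate 1 or P7 PAB replicate 1. That of Xirp1 ran from -0.098 to 0.11 leaving out a library, below 0 without P3 PAB replicate 1, P7 sham replicate 2 or P7 PAB replicate 1. The cause was not tested. Total count scaling moved the share of called genes that were higher from 49.5% to 12.1% between the ages in sham and from 53.7% to 17.4% in PAB. Replicate numbers are shared across groups, but same-numbered deviations correlated at 0.0791 to 0.144 at P3 and -0.0499 to -0.00807 at P7, so the numbers were not taken to pair libraries, although each P3 library correlated best with its own number. With the block Fhl2 at P7 was 0.57, below 1.5-fold. With the block and the length trend removed, Fhl2 and Hspb7 between the ages in PAB were 0.57 and 0.47.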
